A study of Mus musculus with 4 samples.

Results

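The 10 genes of cystine uptake, glutathione metabolism and the NRF2 response (10 of 14376 genes tested) were compared between mouse embryonic stem cells (ESCs) treated to delete Arid1a and control-treated cells. They were taken by symbol from the deposited expression table: Slc7a11, Slc3a2, Gclc, Gclm, Gss, Gsr, Gpx4, Nqo1, Hmox1 and Txnrd1. All of them had a row in the table. The study sequenced polyA RNA of 4 samples of Arid1af/f:CreERT2 ESCs, whose Arid1a alleles are floxed and which carry CreERT2, a Cre recombinase that becomes active when 4-hydroxytamoxifen (4-OHT) is bound. The control group (2 samples) received ethanol and the other group (2 samples) 1 µM 4-OHT, in both cases for 24 hours and with a passage afterwards, and RNA was taken 72 hours after treatment. No sample without CreERT2 was given 4-OHT, so effects of the drug or of active Cre and effects of losing ARID1A cannot be told apart. Both groups grew on irradiated fibroblast feeders, whose RNA may be part of each library, in a medium with serum, serum replacement, LIF and beta-mercaptoethanol, a reducing thiol. The labels name no promoter for CreERT2 and do not say how many clones or cultures were used, so p-values reflect only how far these samples differ from each other, and that spread may be technical.

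Cystine, the oxidised dimer of cysteine, enters cells through system xc-, an exchanger of cystine for glutamate made of the transporter SLC7A11 and the heavy chain SLC3A2. Cysteine is then built into glutathione, which glutathione reductase keeps reduced and which GPX4 uses to detoxify lipid hydroperoxides, the molecules that drive ferroptosis. The transcription factor NRF2 (gene Nfe2l2), held in check by KEAP1, activates many of these genes through antioxidant response elements, while ATF4 activates amino acid transporter genes, Slc7a11 among them, when amino acids are short. In tumour cells lacking ARID1A, SLC7A11 has been described as low, which is the background of looking at it here.

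The deposited values are group means of CPM (reads scaled to the size of their library), from which the whole reads of each library were recovered. Each group's libraries are named A and B here, since the means carry no replicate number. Recovered totals ranged from 6188378 to 7012664 reads, a single read added 0.142 to 0.159 CPM, and a count of 0 allows up to 3 reads or 0.426 to 0.477 CPM (counting error only). Arid1a, the deleted gene (chromosome 4, 133679008 to 133756769 in mm10), averaged 510 ± 10.7 CPM after ethanol against 227 ± 19.8 CPM after 4-OHT (SD, n = 2 per group), 2.24 times lower, read over the whole gene and not over the floxed part alone. ESC markers summed to between 5255 and 5352 CPM in ethanol and between 5547 and 5631 CPM with 4-OHT, with none of the 12 at 0 (3 rose, 2 fell and 7 did not pass). Of 20 fibroblast markers fixed for the feeders, 14 were measured and summed to between 1214 and 1222 CPM in ethanol and between 1117 and 1193 CPM with 4-OHT. Tagln alone averaged 637 CPM in ethanol and 475 CPM with 4-OHT, so the lower sums with 4-OHT follow this gene. Of the 14, 9 had a log2 fold change (4-OHT minus ethanol) above 0 and 5 below 0, with a median of 0.15. The defining fibroblast genes Dcn, Lum, Postn, Fap, Twist2 and Prrx1 had no row and were not analysed here. In such bulk samples fewer cells of a type and less RNA per cell cannot be told apart.

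Hmox1 was higher with 4-OHT, Gsr and Gpx4 were lower, and the cystine transporter gene Slc7a11 was barely expressed in either group. Of the 10 genes, 1 rose, 2 fell and 7 did not pass the threshold (limma on log2(CPM + 1), adjusted p under 0.05). Among all 14376 genes tested, 5.24% rose and 4.22% fell (9.46% in either direction), and among the 9687 with a mean of at least 10 CPM 10.8% passed (5.32% rose and 5.46% fell). The median log2 fold change of the 10 was -0.05, against -0.0016 over all genes tested. The libraries of the groups did not overlap for 6 of the 10, compared with 52.1% of all genes tested. When the recovered reads were tested with edgeR (quasi-likelihood), it called 4 of the 10, adding Slc3a2, and 15.8% of 12961 genes. Without either of the 4-OHT libraries limma called 0 of the 10 and 0 of all genes (2505 and 2514 genes at an unadjusted p under 0.05), whereas edgeR then called 4 of the 10 each time and 1588 and 1767 of all genes.

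**Figure D1:**
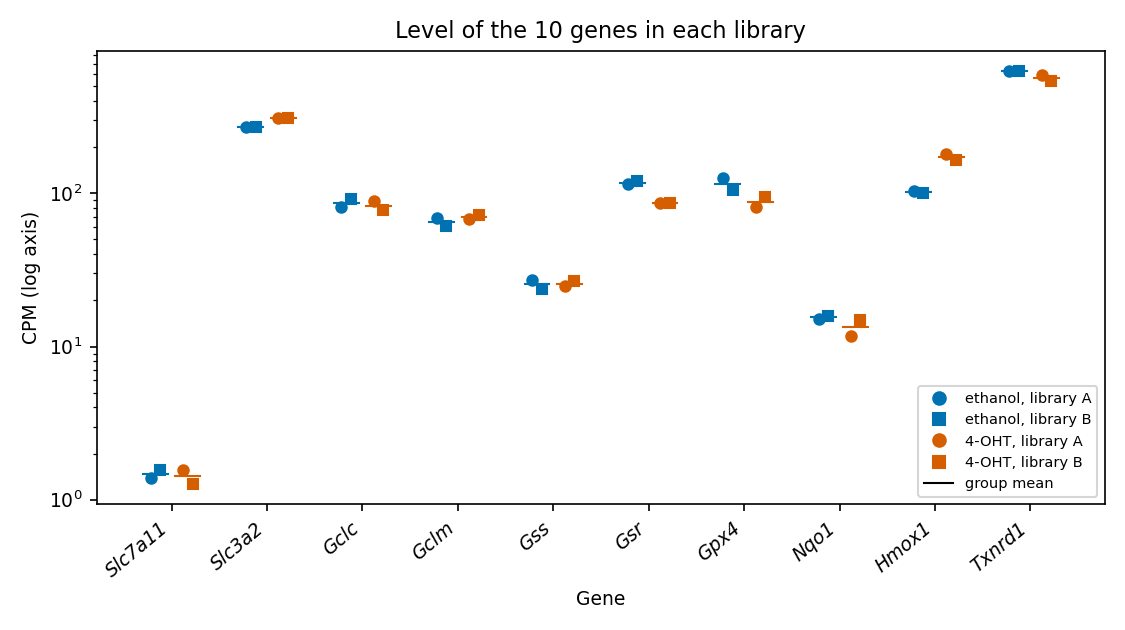
CPM (vertical, log axis) of the 10 genes in each library, ethanol in blue and 4-OHT in orange, with library A as circles, library B as squares and the group mean as a line. Slc7a11 lies near 1.5 CPM in all 4 libraries while Txnrd1 lies above 540 CPM, and the groups stand clearly apart for Hmox1 and Gsr.

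Slc7a11, which encodes the transporting chain of system xc- (Entrez 26570, mm10 chromosome 3, 49892526 to 50443614, minus strand), was covered by 9 and 10 reads after ethanol and by 11 and 8 reads after 4-OHT. These are levels of 1.39 and 1.56 CPM in ethanol and of 1.56 and 1.27 CPM with 4-OHT. The 2 groups overlapped, and the gene stood at the 10.3 percentile of mean CPM among all genes tested. With 19 reads in each group the ratio of 4-OHT to ethanol was 0.965, with a 95% counting interval of 0.484 to 1.93. The log2 fold change was -0.04 (SE 0.21, limma adjusted p = 0.941), with a 95% interval of -0.51 to 0.43 on the scale of log2(CPM + 1). A fall or a rise of Slc7a11 within these bounds was not detectable at this depth, and its sign turned when ethanol library B or 4-OHT library B was left out. Another 5 annotated genes lie within or across the Slc7a11 locus, most of them processed pseudogenes, and the sources used here do not say how reads shared with them were counted.

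The promoter of Slc7a11 is shown because it carries the letters of the element through which ATF4 acts, and the levels of other ATF4 genes are described further on. The window runs from 250 bases before the start to 50 bases after it (RefSeq, GRCm38.p6, 7 of the 10 genes matched), and capitals mark each match to the C/EBP-ATF response element, searched as TGATGNAA on both strands. Slc7a11 (chr3:50443564-50443863, minus strand) has 2 matches, one on each strand, starting 66 and 47 bases before the start. Such a match was in 1304 of 32851 promoter windows of this length (3.97%), and 23 windows (0.0700%) held 2 or more. On the ATF4 list the match is not limited to genes that rose. Asns, the only gene of the list called lower, and Atf3, which did not pass, have matches starting 23 and 110 bases before the start. Chac1 (chr2:119350992-119351291, plus strand), Nupr1 (chr7:126625421-126625720, minus strand) and Vldlr (chr19:27216770-27217069, plus strand), the genes with the largest rises on the ATF4 list that have a match, hold 1 each. Aars, an alanyl-tRNA synthetase gene of the same list that also rose (a call lost with a pseudocount of 0.1, adjusted p = 0.0569, and without ethanol library A or B, limma 0.207 and 0.291, edgeR 0.163 and 0.253), holds 2 in its window, starting 112 bases before and 9 bases after the start.
Slc7a11: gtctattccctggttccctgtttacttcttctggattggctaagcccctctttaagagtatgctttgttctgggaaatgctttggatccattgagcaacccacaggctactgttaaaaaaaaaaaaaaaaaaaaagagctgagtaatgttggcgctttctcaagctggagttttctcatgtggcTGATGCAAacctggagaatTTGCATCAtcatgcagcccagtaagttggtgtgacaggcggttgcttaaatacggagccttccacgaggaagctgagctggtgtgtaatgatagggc
Chac1: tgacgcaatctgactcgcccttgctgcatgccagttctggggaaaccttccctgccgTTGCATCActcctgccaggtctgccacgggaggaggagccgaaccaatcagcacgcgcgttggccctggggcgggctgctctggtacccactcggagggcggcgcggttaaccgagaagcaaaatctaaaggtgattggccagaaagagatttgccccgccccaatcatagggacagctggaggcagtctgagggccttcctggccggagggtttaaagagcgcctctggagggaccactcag
Nupr1: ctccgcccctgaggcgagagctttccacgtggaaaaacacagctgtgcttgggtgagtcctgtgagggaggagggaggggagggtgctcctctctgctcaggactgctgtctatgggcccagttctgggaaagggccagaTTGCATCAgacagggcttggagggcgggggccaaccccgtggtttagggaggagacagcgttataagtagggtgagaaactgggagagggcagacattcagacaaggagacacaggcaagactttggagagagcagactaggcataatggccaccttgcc
Vldlr: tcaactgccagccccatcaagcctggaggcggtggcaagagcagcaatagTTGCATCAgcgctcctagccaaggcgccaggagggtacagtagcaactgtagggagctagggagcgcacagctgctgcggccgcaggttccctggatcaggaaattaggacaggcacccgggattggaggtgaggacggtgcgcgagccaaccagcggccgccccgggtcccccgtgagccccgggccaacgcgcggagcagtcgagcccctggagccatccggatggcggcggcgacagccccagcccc
The antioxidant response element, searched as TGACNNNGC on both strands, was in 12.4% of the 32851 windows. Among the 7 matched genes, Gclm has GCACCGTCA starting 134 bases before its start and Txnrd1 has GCTTTGTCA starting 92 bases before 1 of its 3 starts. A match of letters is a description of the window and does not show that a factor binds there.

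Slc3a2 encodes the heavy chain that carries SLC7A11 and several other light chains to the cell surface (Entrez 17254, chromosome 19, 8706882 to 8723369). It was at 273 and 272 CPM in the ethanol libraries and at 310 and 309 CPM with 4-OHT. Both 4-OHT libraries lay above both ethanol libraries, by 1.14 times on the means. The log2 fold change was 0.19 (SE 0.05, 95% interval 0.07 to 0.30), which did not pass in limma (adjusted p = 0.0548) and passed in edgeR (edgeR adjusted p = 0.0259). Divided by the length of merged exons, so that genes can be set side by side, Slc3a2 was at 90.1 CPM per kb in ethanol and Slc7a11 at 0.150 CPM per kb.

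Other light chains that pair with SLC3A2 were far more abundant than Slc7a11 in these cultures. In ethanol, the level per length was 64.6 CPM per kb for Slc7a5 (LAT1, a carrier of large neutral amino acids), 56.2 for Slc7a7 and 24.7 for Slc7a6 (both carriers of cationic and neutral amino acids). Slc7a8 and Slc7a10 were low, at 0.514 and 0.479 CPM per kb, and in ethanol and with 4-OHT every library of either lay above every library of Slc7a11 per length. Without the division by length, Slc7a10 had fewer reads in ethanol (7 and 6) than Slc7a11 (9 and 10). The merged exons of Slc7a11 are longer (9848 against 2111 bp). Slc7a5 was at 224 and 230 CPM in ethanol and at 308 and 295 CPM with 4-OHT. It rose 1.33-fold (log2 fold change 0.41, SE 0.06, limma adjusted p = 0.00144), and its groups did not overlap.

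**Figure D2:**
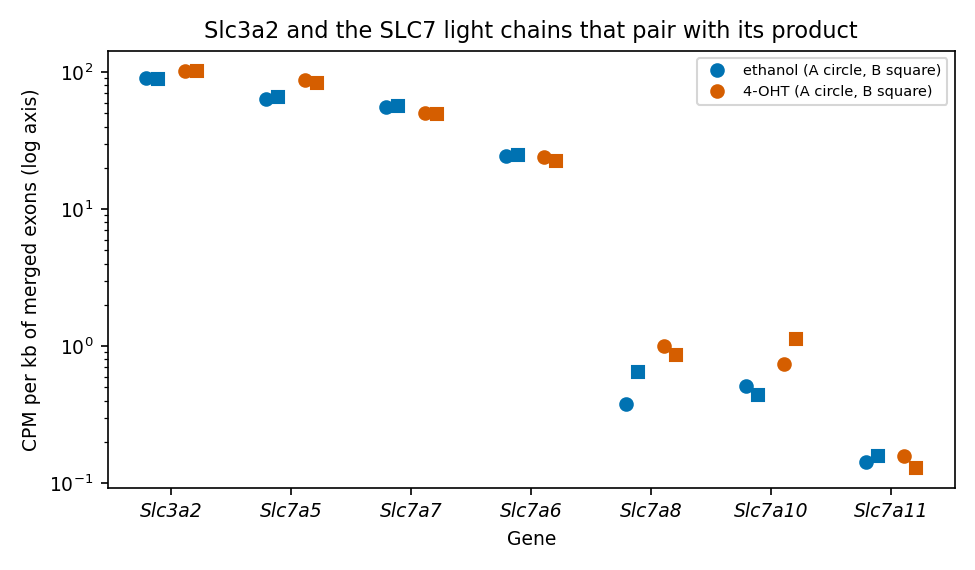
CPM per kilobase of merged exons (vertical, log axis) in each library for Slc3a2 and 6 SLC7 genes whose products pair with it, ethanol in blue and 4-OHT in orange, library A as circles and B as squares. Slc7a11 is the lowest of the 7 at 0.150 CPM per kb in ethanol, and Slc7a5 is higher in both 4-OHT libraries. In CPM, without the division by length, Slc7a10 is lower in ethanol than Slc7a11 (means of 1.01 and 1.48).

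Of 17 measured amino acid transporter genes of the SLC7, SLC3, SLC1 and SLC38 families, not counting Slc7a11 and Slc3a2, 4 rose, 0 fell and 13 did not pass (edgeR also called 4 higher and 0 lower, of 15 it tested). At an unadjusted p under 0.05, 8 were higher and 1 lower, and the list's median change was 0.26 (log2). Over all 14376 genes tested, 1804 were higher and 1637 lower at that unadjusted threshold. Slc1a4, which carries alanine, serine and cysteine, was at 29.3 and 31.4 CPM in ethanol and at 53.3 and 54.0 CPM with 4-OHT, a rise of 1.77-fold (limma adjusted p = 0.000451). Slc7a1, a carrier of cationic amino acids, rose from a mean of 64.1 to 92.1 CPM. Slc38a2, a sodium-coupled carrier of small neutral amino acids, rose from 368 to 441 CPM, a call lost without ethanol library A (limma adjusted p = 0.149, edgeR 0.0943) and in limma without ethanol library B (0.0575). Slc1a5, the related carrier of glutamine, had means of 73.8 CPM (ethanol) and 75.4 CPM (4-OHT) without passing (adjusted p = 0.851, 95% interval of the log2 fold change -0.13 to 0.20).

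The 3 genes of glutathione synthesis did not pass, and their groups overlapped. Gclc encodes the catalytic subunit of glutamate-cysteine ligase, the rate-limiting step (Entrez 14629, chromosome 9, 77754535 to 77794485). It was at 82.0 and 91.7 CPM in ethanol and at 89.0 and 77.4 CPM with 4-OHT (log2 fold change -0.06, 95% interval -0.26 to 0.13, adjusted p = 0.724). Gclm, the modifier subunit of the same enzyme (Entrez 14630, chromosome 3, 122245557 to 122270732), was at 69.4 and 61.3 CPM in ethanol and at 68.2 and 72.2 CPM with 4-OHT (log2 fold change 0.10, 95% interval -0.08 to 0.29, adjusted p = 0.501).
Gss encodes glutathione synthetase, which adds glycine in the last step (Entrez 14854, chromosome 2, 155563181 to 155592810). Its levels were 27.1 and 23.7 CPM in ethanol and 24.9 and 26.7 CPM with 4-OHT (log2 fold change 0.02, 95% interval -0.23 to 0.28, adjusted p = 0.935). The intervals of these 3 genes leave room for changes of up to about 0.29 in size on the log2 scale. Gss overlaps genes on the other strand, Acss2 among them, and since the use of strand in counting is not given, reads of the 2 strands cannot be told apart. Other annotated genes also overlap Gclm (2), Gsr (1) and Txnrd1 (3), and how reads shared with them were counted is not given.

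Gsr, which encodes the reductase that turns oxidised glutathione back into its reduced form, fell with 4-OHT (Entrez 14782, chromosome 8, 33652523 to 33698163). It was at 115 and 120 CPM in ethanol and at 86.7 and 86.6 CPM with 4-OHT. The 4-OHT libraries were nearly equal and lay below both ethanol libraries, 1.35 times lower on the means. The log2 fold change was -0.43 (SE 0.06, 95% interval -0.57 to -0.29, limma adjusted p = 0.0023).

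Gpx4, which encodes the selenium-containing peroxidase that reduces lipid hydroperoxides with glutathione, was also lower (Entrez 625249, chromosome 10, 80047166 to 80056439). Its levels were 126 and 106 CPM in ethanol and 81.7 and 95.2 CPM with 4-OHT. The groups did not overlap, but the libraries within each group differed more than for Gsr. Gpx4 fell by 0.39 on the log2 scale (SE 0.10, 95% interval -0.60 to -0.17, limma adjusted p = 0.0347), a level 1.31 times lower. The call was lost with a pseudocount of 0.1 (adjusted p = 0.0610) and without ethanol library A (limma adjusted p = 0.154, edgeR adjusted p = 0.0922), where the log2 fold change was -0.26 in both tools. The annotation also holds a processed pseudogene of Gpx4, and how reads shared with it were counted is not given.

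Of 27 measured genes of glutathione use and turnover, 2 rose, 1 fell and 24 did not pass, with a median log2 fold change of -0.05, while edgeR called 4 higher and 3 lower. Over all genes tested 5.24% rose and 4.22% fell in limma, and edgeR called 15.8%. These shares are the background for every list described here. Chac1, whose product breaks glutathione down inside the cell, was at 15.7 and 12.3 CPM in ethanol and at 24.3 and 29.4 CPM with 4-OHT. It rose 1.92-fold (log2 fold change 0.90, SE 0.15, limma adjusted p = 0.00461), with groups that did not overlap. Gstt2, a glutathione S-transferase gene, rose from a mean of 26.5 to 36.8 CPM, a call lost in DESeq2 (adjusted p = 0.142), in limma without ethanol library A (0.0730) and in edgeR without 4-OHT library B (0.0817). Cth, which encodes the enzyme that makes cysteine from cystathionine, fell from 161 to 121 CPM, 1.32 times lower on the means (limma adjusted p = 0.0141). None of 10 genes of selenoprotein synthesis, on which GPX4 and TXNRD1 depend, passed in limma (0 rose, 0 fell), at an unadjusted p under 0.05 there were also 0 and 0, and edgeR called 0 of 10.

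Hmox1, which encodes heme oxygenase, the enzyme that opens heme and frees its iron, had the largest change of the 10 genes (Entrez 15368, chromosome 8, 75093621 to 75100589). It was at 104 and 101 CPM in ethanol and at 180 and 164 CPM with 4-OHT. Both 4-OHT libraries lay well above both ethanol libraries. The rise was 1.68-fold on the means (log2 fold change 0.74, SE 0.07, 95% interval 0.59 to 0.89, limma adjusted p = 0.000153). With each library left out in turn its log2 fold change lay between 0.68 and 0.81. Among the fibroblast markers 3 rose, 1 fell and 10 did not pass: Col1a2 went from 20.8 to 45.0 CPM, Thy1 from 1.40 to 3.25 CPM and Sparc from 350 to 413 CPM, while Tagln fell from 637 to 475 CPM. The calls of Thy1 and Sparc were lost without ethanol library A (limma adjusted p = 0.135 and 0.230) and under other settings, those of Col1a2 and Tagln only in limma without either 4-OHT library. Their part in the rise of Hmox1 was not tested.

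Nqo1 and Txnrd1, which like Hmox1 are known NRF2 targets, did not pass. Nqo1, which encodes a quinone reductase (Entrez 18104, chromosome 8, 107388225 to 107403206), was at 15.0 and 15.9 CPM in ethanol and at 11.8 and 14.9 CPM with 4-OHT. Its groups were separated only by the narrow gap between ethanol library A and 4-OHT library B, and it did not pass (log2 fold change -0.21, 95% interval -0.55 to 0.13, adjusted p = 0.465). Txnrd1, which encodes the cytosolic thioredoxin reductase, was the most abundant of the 10 both in CPM and per length (Entrez 50493, chromosome 10, 82833951 to 82897712). Its levels were 625 and 626 CPM in ethanol and 589 and 543 CPM with 4-OHT. Both 4-OHT libraries were lower, by 1.10 times on the means, and the change did not pass (log2 fold change -0.14, 95% interval -0.27 to -0.02, adjusted p = 0.156), although edgeR called it lower when 4-OHT library A was left out (edgeR adjusted p = 0.0138).

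**Figure D3:**
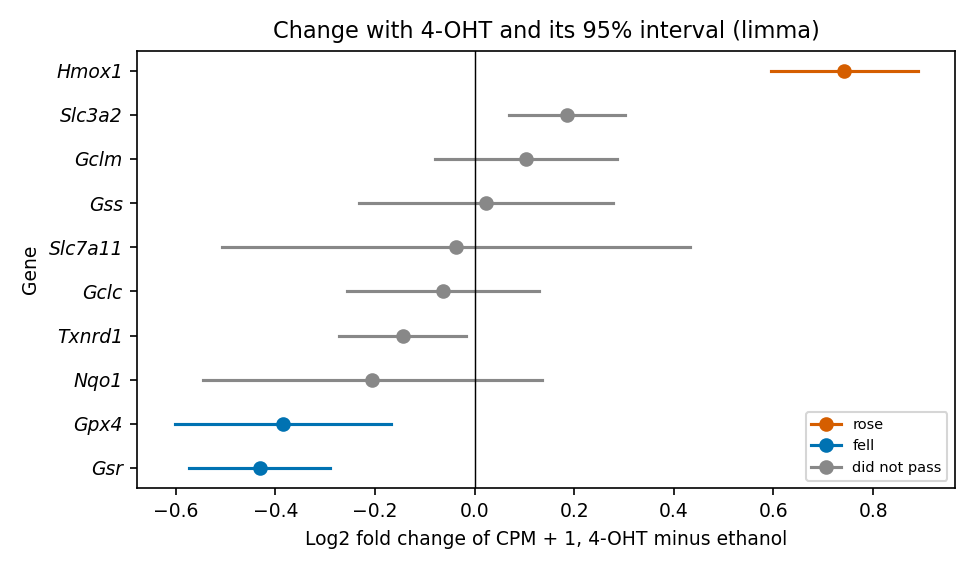
Horizontal axis: log2 fold change on the CPM + 1 scale, 4-OHT over ethanol, with its 95% interval from limma for the 10 genes. Hmox1 (orange) is at 0.74, Gsr and Gpx4 (blue) are at -0.43 and -0.39, the 7 grey genes did not pass, and the interval of Slc7a11 runs from -0.51 to 0.43.

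Of 13 genes that regulate NRF2 or compete with it, 0 rose, 1 fell and 12 did not pass in limma (1 higher and 2 lower at an unadjusted p under 0.05, and 1 each in edgeR), with a median log2 fold change of 0.0048. Nfe2l2, the gene of NRF2 itself, was at 80.9 and 90.9 CPM in ethanol and at 83.9 and 75.8 CPM with 4-OHT, and its groups overlapped (log2 fold change -0.10, adjusted p = 0.496). Keap1, which encodes the adaptor that targets NRF2 for destruction, was at 30.7 and 30.6 CPM in ethanol and at 25.6 and 23.4 CPM with 4-OHT. It was lower in both 4-OHT libraries without passing (log2 fold change -0.31, 95% interval -0.55 to -0.08, adjusted p = 0.0967). Bach1, a heme-sensing repressor known to act on Hmox1 and other genes with antioxidant response elements, fell. Its levels were 71.1 and 74.3 CPM in ethanol and 57.3 and 53.2 CPM with 4-OHT (log2 fold change -0.39, SE 0.08, limma adjusted p = 0.0102).

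Of 23 other measured NRF2 targets, 1 rose, 2 fell and 20 did not pass, and the median log2 fold change was -0.10. Fth1, the ferritin heavy chain gene, rose from 532 to 671 CPM, 1.26-fold, whereas Ftl1, the ferritin light chain gene, fell from 738 to 626 CPM, 1.18 times lower. Neither gene's groups overlapped (limma adjusted p = 0.00322 and 0.0221), but the call of Ftl1 was lost without ethanol library A (limma 0.238, edgeR 0.176) and in limma without ethanol library B (0.0748). Both have processed pseudogenes, so that their levels are uncertain. Cat, the catalase gene, fell from 112 to 87.4 CPM, a call lost in limma without ethanol library A (adjusted p = 0.0551). Srxn1, the sulfiredoxin gene and a classical NRF2 target, averaged 67.3 CPM in the controls against 67.9 CPM with 4-OHT (adjusted p = 0.938, 95% interval of the log2 fold change -0.15 to 0.18).

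In the thioredoxin and peroxiredoxin system, 1 of 16 measured genes rose, 3 fell and 12 did not pass (median log2 fold change -0.07). Nxn, the nucleoredoxin gene, fell from 171 to 109 CPM (log2 fold change -0.65, limma adjusted p = 0.000798). Prdx6, a peroxiredoxin that uses glutathione and acts on phospholipid hydroperoxides, fell from 473 to 337 CPM (log2 fold change -0.49, limma adjusted p = 0.000798). Prdx2 fell from 236 to 203 CPM, and Txnip, which encodes an inhibitor of thioredoxin, rose from 137 to 168 CPM. Without ethanol library A the calls of Txnip (limma adjusted p = 0.117, edgeR 0.0946) and Prdx2 (limma 0.133, edgeR 0.100) were lost, and that of Prdx2 also without ethanol library B (limma 0.157, edgeR 0.124) and in DESeq2 (0.0920). Prdx1, at 549 and 560 CPM, and Txn1, at 239 and 224 CPM in ethanol and with 4-OHT, did not pass and their groups overlapped.

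Of 25 genes of lipid peroxidation and iron handling, 3 rose, 3 fell and 19 did not pass (edgeR called 3 higher and 6 lower), with a median log2 fold change of -0.03. Alox15, a lipoxygenase gene, was at 7.75 and 7.02 CPM in ethanol and at 33.4 and 28.9 CPM with 4-OHT, a rise of 4.22-fold. Acsl4, which encodes the enzyme that prepares polyunsaturated fatty acids for phospholipids, rose from 82.0 to 108 CPM (log2 fold change 0.40, SE 0.07, limma adjusted p = 0.00565). Fth1 and Ftl1 are also on this list. Slc39a14, a metal importer gene, fell from 114 to 90.0 CPM, and Aco1, which encodes an iron regulatory protein and was named after its values were seen, from 102 to 83.9 CPM. The call of Aco1 was lost in DESeq2 (adjusted p = 0.167), without ethanol library A (limma 0.113, edgeR 0.0920), without ethanol library B (limma 0.0789, edgeR 0.0529) and in edgeR without 4-OHT library B (0.0550). Tfrc, the transferrin receptor gene, averaged 462 CPM in the controls against 515 CPM with 4-OHT, which did not pass (adjusted p = 0.103).

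**Figure D4:**
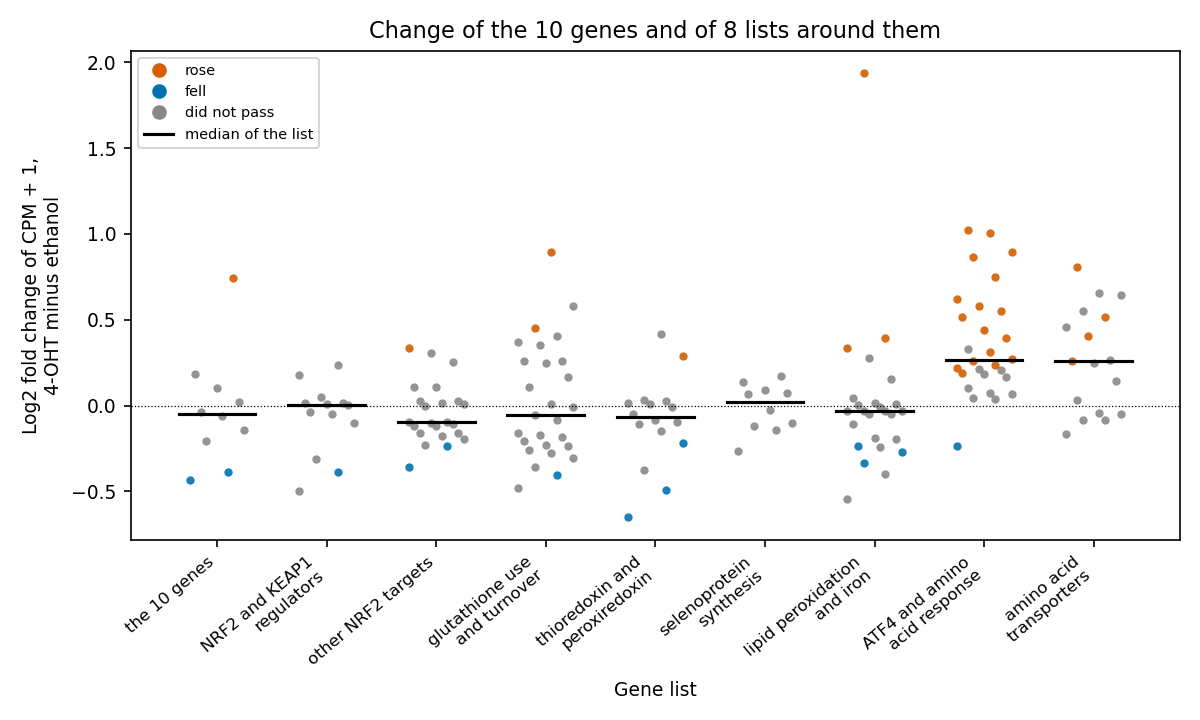
Vertical axis: log2 fold change on the CPM + 1 scale, 4-OHT over ethanol, of every measured gene of the 10 and of 8 lists around them; orange genes rose, blue genes fell, grey genes did not pass, and the black bar is the median of the list. On the ATF4 list 27 of 28 genes lie above 0, while the medians of the glutathione, thioredoxin and NRF2 target lists lie slightly below 0.

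Genes that respond to ATF4 and to amino acid shortage were mostly higher with 4-OHT: of 28 measured, 17 rose, 1 fell and 10 did not pass, and 27 lay above 0. The median log2 fold change was 0.26, against -0.0016 over all genes tested, where 5.24% rose and 7115 of 14376 lay above 0. The list was chosen with earlier results of these data known, so these counts describe it and are no independent evidence. Vldlr, a lipoprotein receptor gene, rose from 3.81 to 8.65 CPM, Slc6a9, a glycine transporter gene, from 5.91 to 13.1 CPM and Nupr1, a stress-induced nuclear protein gene, from 1.63 to 3.81 CPM, along with Chac1. Asns, the asparagine synthetase gene and the only one that fell, was at 271 and 276 CPM in ethanol and at 223 and 242 CPM with 4-OHT (log2 fold change -0.23, limma adjusted p = 0.0343). The call of Asns was lost in DESeq2 (adjusted p = 0.0582), without ethanol library A (limma 0.104, edgeR 0.0599), without ethanol library B (limma 0.154, edgeR 0.104) and in edgeR without 4-OHT library A (adjusted p = 0.0823). Atf4 itself was at 271 and 267 CPM in ethanol and at 308 and 296 CPM with 4-OHT, and this did not pass (log2 fold change 0.16, adjusted p = 0.0914). Of the 24 genes of this list with a promoter window (29 windows), 8 held a C/EBP-ATF match, which was in 3.97% of all 32851 windows. These 8 include Asns and also Atf3, which did not pass (limma adjusted p = 0.759). The antioxidant response element was likewise in 8 of the 24 genes, and in 12.4% of all windows. The list counts are of genes with a match in any of their windows, and the percentages are of single windows. They are therefore not directly comparable, and the list was itself chosen for its response to ATF4. DESeq2 called 10 of the 28 higher and 0 lower, as did limma without ethanol library B, and edgeR 19 and 1. Vldlr lost its call in DESeq2 (adjusted p = 0.0603), and Nupr1 in DESeq2 (0.364), without ethanol library A (limma 0.0748, edgeR 0.106) and in edgeR without ethanol library B (0.0684) or 4-OHT library A (0.0998).

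For Slc7a11, a known target of ATF4 with the paired match shown above, the reads were 19 in ethanol and 19 with 4-OHT. Its 95% limma interval of -0.51 to 0.43 holds both 0 and the median of 0.26. The 4 libraries thus do not separate Slc7a11 from the middle of the list. The interval lies below the largest log2 fold changes of the list, those of Slc6a9 (1.02), Vldlr (1.01), Chac1 (0.90) and Nupr1 (0.87). All are on the scale of log2(CPM + 1), which understates changes of low genes such as Slc7a11 more than those of abundant genes. The interval is therefore not directly comparable with the median or with these values. The counting interval of Slc7a11, 0.484 to 1.93, leaves out spread between libraries and narrowly holds the 1.92-fold rise of Chac1. The folds on means of Slc6a9 (2.22), Vldlr (2.27) and Nupr1 (2.33) lie above it. No difference between Slc7a11 and another gene was tested. Over the 8 lists together, with each gene counted once, 26 of 152 measured genes rose and 10 fell, and 18 of these 36 are on the ATF4 list. Among all genes tested 5.24% rose and 4.22% fell.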

How the data were processed

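PolyA RNA-seq of 2 ethanol and 2 4-OHT samples was used. Per the submitters' processing notes, the authors used FastQC, Trimmomatic, HISAT2 and edgeR with mm10; no version, read counter or strand setting is given in the sources used here. The labels' protocols name 2 library kits without tying either to a sample. Whether the kit differed between the groups is therefore not known, and kit and treatment may be confounded. Per the file headers, the authors deposited each group's mean CPM, an adjusted p-value and a log2 fold change. The deposited p-value and log2 columns were not used, because their rows do not belong to the genes beside them: with rows sorted by Entrez number as text, the p-value fell in 0 of 14381 steps.

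A mean CPM is a sum of whole reads of 2 libraries times 2 steps, which were found from the low values. With them 100% of 14382 values per column came out whole to the printed digits (0.133% and 0.300% of 3000 values moved at random did), and 99.7% and 99.95% had exactly 1 solution. In 38 and 7 genes with several solutions, libraries within 2-fold of each other were required, and 6 genes at 2859 CPM or more were left out. Log2(CPM + 1) values correlated at 0.995 or more within groups and 0.987 to 0.988 between them (across genes, which are not independent).

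The main test was limma 3.58.1 (trend, R 4.3.3) on log2(CPM + 1) of 4-OHT against ethanol (two-sided), Benjamini-Hochberg over 14376 genes, threshold 0.05, no filter. A fold change on this scale understates changes of low genes, and folds on means are of CPM. Alternatives were edgeR 4.0.16, DESeq2 1.42.0, DESeq2 size factors, a pseudocount of 0.1, a minimum mean of 1 CPM and leaving out each library. Fits were tested on simulated data. The 10 genes and the lists were chosen with earlier results of these data known. Named genes were the 10, Arid1a, 14 pathway genes chosen whatever their result, and up to 4 passing genes of each list with the largest change. Asns, Aco1, Aars, Atf3 and the SLC7 light chains of SLC3A2 were added after their values were seen. Coordinates and merged exon lengths are from Gencode M21 (mm10).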

Additional observations from a re-analysis of the deposited data

How the results depend on the processing

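No paired analysis was possible because the deposited columns are group means that carry no replicate number. With 1 library left out, limma called between 0 and 1031 of all genes (1360 with all 4 libraries), between 0 and 3 of the 10 (from 3) and between 0 and 27 of the pathway genes (from 36), the 0 each time without either 4-OHT library (lowest adjusted p 0.129 and 0.121). With 1 library left out, edgeR called between 1302 and 1767 of all genes (2042 with all 4), between 2 and 4 of the 10 (from 4) and between 28 and 40 of the pathway genes (from 46). Over all genes, edgeR called 2042, DESeq2 700 and limma with a minimum mean of 1 CPM 2034. Over the left-out libraries in both tools the log2 fold change of Slc7a11 lay between -0.21 and 0.081, of Gclc between -0.17 and 0.037 and of Gss between -0.075 and 0.12, of Srxn1 between -0.035 and 0.062, of Prdx1 between -0.065 and 0.12 and of Slc1a5 between -0.035 and 0.099, none of them passing. Hmox1 and Gsr passed under every setting other than limma without either 4-OHT library. Slc3a2 passed in edgeR and with the minimum of 1 CPM (adjusted p = 0.0271), and in edgeR without 4-OHT library B. DESeq2 size factors changed no call among the 10. With 19 reads per group, depth limits Slc7a11 most.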
